A study of Mus musculus with 12 samples.

Results

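Bone marrow stroma from mice with 1 inactive copy of Crebbp was compared with stroma from mice with 1 inactive copy of Ep300. The members were chosen by genotype alone and are the 4 Crebbp+/- and the 4 Ep300+/- arrays, 8 of the 12 arrays in the series, read over every measured probe set. The other 4 arrays, of wild-type stroma, show where the unmutated level lies. Per the labels, all 3 genotypes were C57BL/6 mice of 3 to 4 months. Their marrow was grown for 2 weeks in M5300 medium, and the adherent cells received 1500 cGy of radiation and fresh medium, so both heterozygotes and the controls carry the same irradiation. The labels call the 4 arrays of a genotype biological replicates. They give no sex, batch or scan date, and do not say whether animals were pooled. The p-values measure the spread between these samples, which may be partly technical. The question, as the labels frame it, is how loss of a copy of either gene changes the stroma, and here which genes separate the heterozygotes.

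Crebbp encodes CBP and Ep300 encodes p300, large paralogous acetyltransferases that are recruited to enhancers and promoters by many transcription factors. They acetylate histones and carry related domains that bind CREB, STAT2, p53, NF-kB and hypoxia factors, among others. Bone marrow stroma holds the reticular, endothelial, bone-forming and fat cells that support blood formation, and macrophages usually grow with it in culture.

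Values are log2 expression levels made by the authors with GCRMA. The deposited table holds the more variable part of the chip: 3109 probe sets after control probe sets were removed, 1974 genes among them. Array medians lay between 7.98 and 8.43. The stromal factors Cxcl12 (13.50 to 14.92 over the 12 arrays), Kitl (10.63 to 12.52) and Vcam1 (10.59 to 12.63) were present on every array, and so were the macrophage genes Tyrobp (11.97 to 13.85) and Cd163 (12.83 to 14.38) and the fat cell gene Adipoq (10.19 to 12.94). Markers of several cell types were thus measured together, and in such bulk samples fewer cells of a type and less RNA per cell cannot be told apart.

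Several arrays stood apart. The Y-linked gene Eif2s3y was at 2.73 in Crebbp+/- 1 and 2.69 in Crebbp+/- 3 and between 8.41 and 10.84 on the other 10 arrays. The Crebbp+/- group was thus mixed in this gene. Its mean was 5.76 (SD 3.54) in Crebbp+/- and 9.27 in Ep300+/-, a log2 difference of -3.50 (SE 1.29). With that spread the difference did not pass the threshold (limma adjusted p = 0.115), which does not show that the heterozygotes were alike in it. Fits without the low arrays rest on Crebbp+/- 2 and Crebbp+/- 4 alone for that genotype. Xist, the X-inactivation RNA, was between 9.63 and 12.21 on all arrays, including those with a high Eif2s3y level. It was highest on Crebbp+/- 3 (12.21) and Crebbp+/- 1 (12.19), with Crebbp+/- 2 next (11.99). A weaker Xist probe set ran from 6.47 on Crebbp+/- 4 to 10.92 on Crebbp+/- 2, with 9.46 on Crebbp+/- 1 and 8.75 on Crebbp+/- 3. NF-kB target genes were high on Crebbp+/- 3 and Ep300+/- 3, where the list lay 2.42 and 2.33 log2 units above its mean over the 12 arrays against -1.10 to 0.66 elsewhere. Crebbp+/- 4 was low in endothelial genes. The values below are given beside those without these arrays where they change.

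Crebbp itself was at 7.88, 7.67, 7.71 and 7.72 in Crebbp+/- arrays 1 to 4 and at 8.73, 8.66, 8.48 and 8.73 in Ep300+/- arrays 1 to 4. The groups did not overlap, and the labelled genotype was visible on each array. Crebbp+/- stroma held 53.4% of the Ep300+/- level (a log2 difference of -0.91, SE 0.20, limma adjusted p = 0.0228). Exact two-sided permutation of the 8 array labels gave p = 0.0286, and no smaller p is possible with 70 regroupings. Leaving out Crebbp+/- 1, Crebbp+/- 2, Ep300+/- 1, Ep300+/- 2 or Ep300+/- 4 raised the adjusted p of Crebbp to 0.0766, 0.0732, 0.0729, 0.0511 and 0.0613. No probe set of the table was assigned to Ep300, so the other labelled genotype was not checked in this way.

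Most of the separation was towards higher expression in Crebbp+/- stroma, with endothelial and interferon-response genes leading it, while a smaller group of cartilage, tendon, bone, mesothelial and sterol genes was lower. Of 3109 probe sets, 199 (6.40%) passed an adjusted p of 0.05 in limma, 152 of them higher and 47 lower in Crebbp+/-. Read by gene, each through its probe set of highest mean, 103 of 1974 (5.22%) were higher and 37 (1.87%) lower. The median over all genes was 0.08 on the log2 scale, and a median for a group of genes is read against it. All 4 Crebbp+/- arrays lay above all 4 Ep300+/- arrays for 10.2% of genes and below them for 5.32%.

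Same-numbered Crebbp+/- and Ep300+/- arrays deviated in part together, with r from 0.294 to 0.513. Wild-type arrays were not compared in this way. A fit over all 12 arrays with the replicate number as a block called 760 probe sets (595 higher, 165 lower), all 199 among them. By gene the block gave 21.4% higher and 6.13% lower. The number of calls rested heavily on single arrays: 9 probe sets passed without Crebbp+/- 1, 38 without Crebbp+/- 2, 132 without Crebbp+/- 3, 374 without Crebbp+/- 4, 2 without Ep300+/- 1, 121 without Ep300+/- 2, 322 without Ep300+/- 3 and 59 without Ep300+/- 4. Of the 140 genes called in either direction, Comp alone passed in all 12 fits that leave out an array, while Ecscr, Tspan32, S100b, Itga10 and Sdcbp2 passed in 11. The direction was steadier than the call: all 140 genes kept their sign in each of these fits, and in none did leaving out 1 array move the log2 fold change by over 1.5 times. Without both arrays of low Eif2s3y, 2 probe sets passed, 590 had an unadjusted p under 0.05 against 782 with them, and all 140 genes again kept their sign, at a median of 87.7% of the size. With the Eif2s3y level as a covariate 0 passed and 476 had an unadjusted p under 0.05. The part of Eif2s3y and of any difference in sex in the calls below was not tested further.

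**Figure D1:**
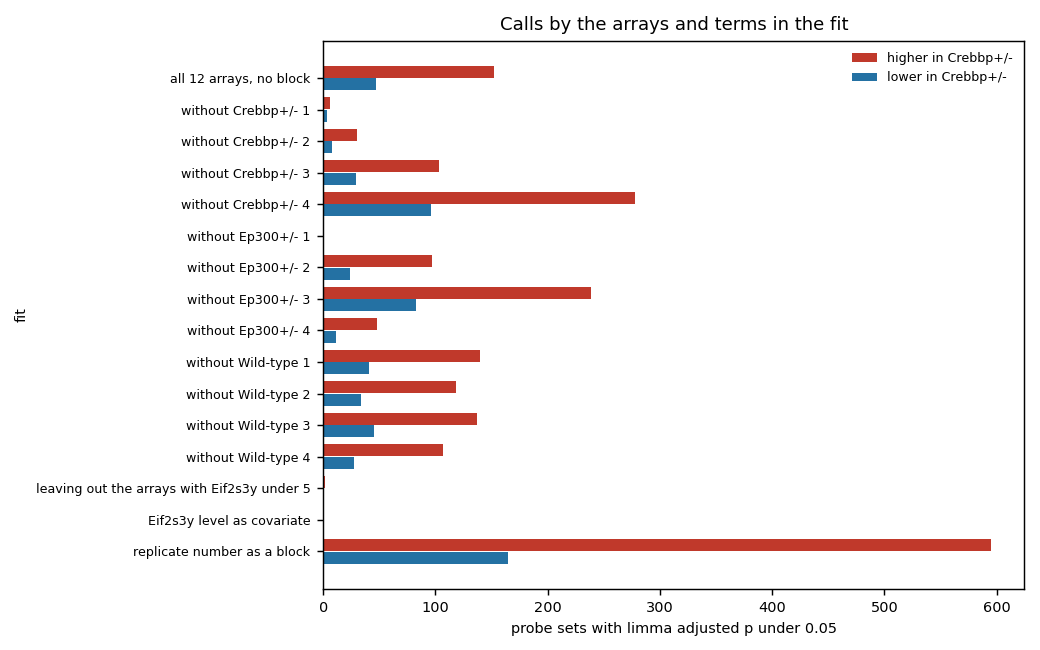
Number of probe sets that passed an adjusted p of 0.05 between Crebbp+/- and Ep300+/- stroma (horizontal axis) in each fit, with bars for those higher and those lower in Crebbp+/-. The count was 199 in the fit reported here, 760 with the replicate block, 2 without Ep300+/- 1 and 2 without both arrays of low Eif2s3y.

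Among called genes, the extremes of the log2 fold change (15 at either end) ranged from 3.47 (Ifi213) down to -4.10 (Myh1). Both heterozygotes were also set against the same 4 wild-type arrays, so the 2 differences from wild type are not independent and are given only to place the unmutated level. For 11 of the 140 called genes the Ep300+/- mean lay farther from the wild-type mean than the Crebbp+/- mean did, and for the others the Crebbp+/- mean did. For 13 called genes the lower of the heterozygote means was under 5, near the bottom of the scale, where GCRMA values are least certain in size: Gimap4, Icam2, Igkv8-30, Oasl1, Gbp8, Erg, Upp1, Cyp4b1, Slc22a23, Hoxc8, Smoc2, Cadm1 and Myh1.

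**Figure D2:**
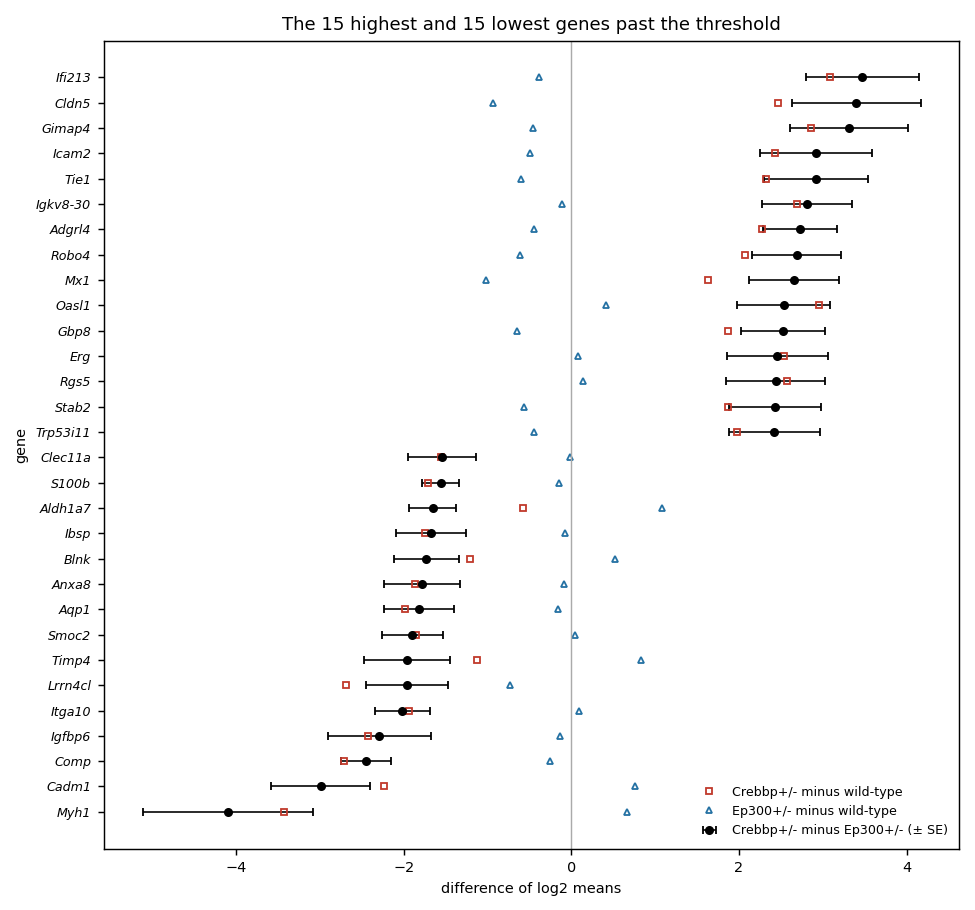
Log2 fold change of Crebbp+/- over Ep300+/- (black points with SE) for the 15 highest and 15 lowest called genes, with Crebbp+/- minus wild type (red squares) and Ep300+/- minus wild type (blue triangles). The range runs from 3.47 for Ifi213 to -4.10 for Myh1, and both coloured series use the same 4 wild-type arrays.

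Endothelial genes were the group with most calls. Of 64 listed markers 36 were measured, and 22 were higher and 1 lower in Crebbp+/- stroma, against 5.22% and 1.87% of all genes. Their median log2 fold change was 1.86 and 34 of the 36 were positive. With the replicate block 31 were higher and 1 lower, against 21.4% and 6.13% of all genes. Averaged over the list, the Crebbp+/- arrays stood 1.66, 1.39, 1.59 and -0.18 log2 units from the 12-array mean and the Ep300+/- arrays -0.77, -0.62, -0.20 and -1.24. Wild-type arrays stood at 0.38, -0.65, -0.62 and -0.74, so 3 of the 4 Crebbp+/- arrays were above every other array and Crebbp+/- 4 was not.

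**Figure D3:**
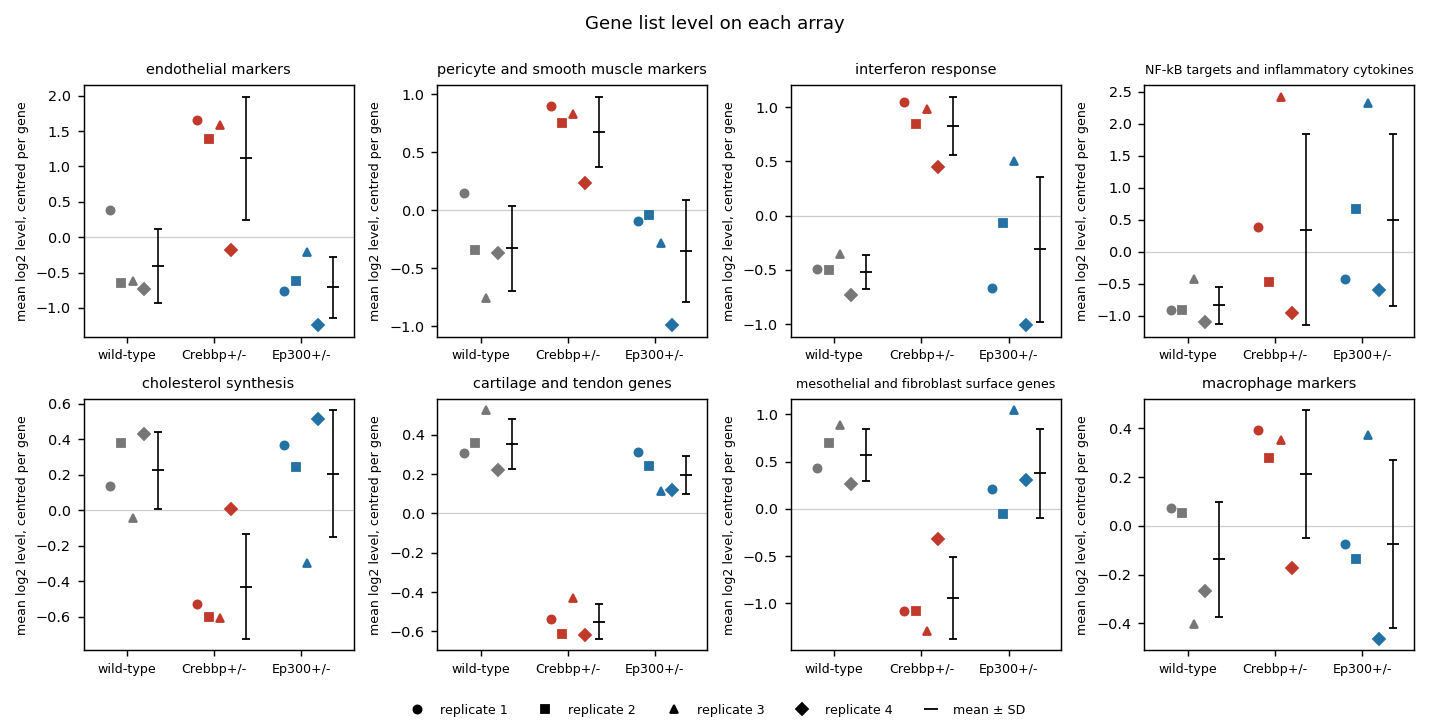
Mean log2 level per array of the measured members of 8 gene lists, each gene centred on its mean over the 12 arrays, for wild-type, Crebbp+/- and Ep300+/- stroma. Points are arrays marked by replicate number and bars are the group mean ± SD (n = 4); endothelial genes run from -0.18 to 1.66 in Crebbp+/- and from -1.24 to -0.20 in Ep300+/-.

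Junction and adhesion genes of endothelial cells were prominent in this group. Pecam1, the CD31 adhesion molecule, was at 11.51, 11.17, 11.31 and 9.62 in Crebbp+/- arrays 1 to 4 and at 8.28, 8.77, 8.82 and 8.11 in Ep300+/-. The groups were apart, with the lowest Crebbp+/- value on array 4, and the level was 5.31-fold higher (a log2 difference of 2.41, SE 0.40, limma adjusted p = 0.0116). Cldn5, a tight junction claudin, was at 9.37, 8.90, 9.44 and 6.22 against 5.41, 4.93, 5.80 and 4.19. It was 10.5-fold higher (a log2 difference of 3.40, SE 0.77, limma adjusted p = 0.0249). Wild-type stroma had 8.0 on array 1 and 4.98 to 5.82 on the others. The log2 fold change of Cldn5 was 4.15 without Crebbp+/- 4 and 2.48 without the arrays of low Eif2s3y. Icam2, a ligand for leukocyte integrins (2.92, limma adjusted p = 0.0253), was higher as well. Cdh5, the endothelial cadherin (2.25), and Esam, an adhesion molecule of endothelial tight junctions (2.13), were also higher, with adjusted p of 0.0153 and 0.0134, and were picked out after their values were seen.

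Further surface proteins of endothelial cells were higher as well. Ecscr, a surface protein of endothelial cells, was at 10.06, 9.92, 9.75 and 9.40 in Crebbp+/- and at 7.83, 8.52, 8.16 and 8.07 in Ep300+/-. No arrays overlapped (log2 fold change 1.64, SE 0.24, limma adjusted p = 0.00805). Myct1, a membrane protein of endothelium, was at 7.59, 7.60, 7.5 and 6.41 against 5.0, 5.63, 5.62 and 4.90, again without overlap (1.99, SE 0.32, adjusted p = 0.0116). Adgrl4, an adhesion G protein-coupled receptor of growing vessels, was at 10.54, 10.53, 10.03 and 8.75 against 7.17, 7.55, 7.81 and 6.40. It was higher by 2.73 log2 units (SE 0.45, adjusted p = 0.0116), with the lowest value of each genotype on array 4.

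**Figure D4:**
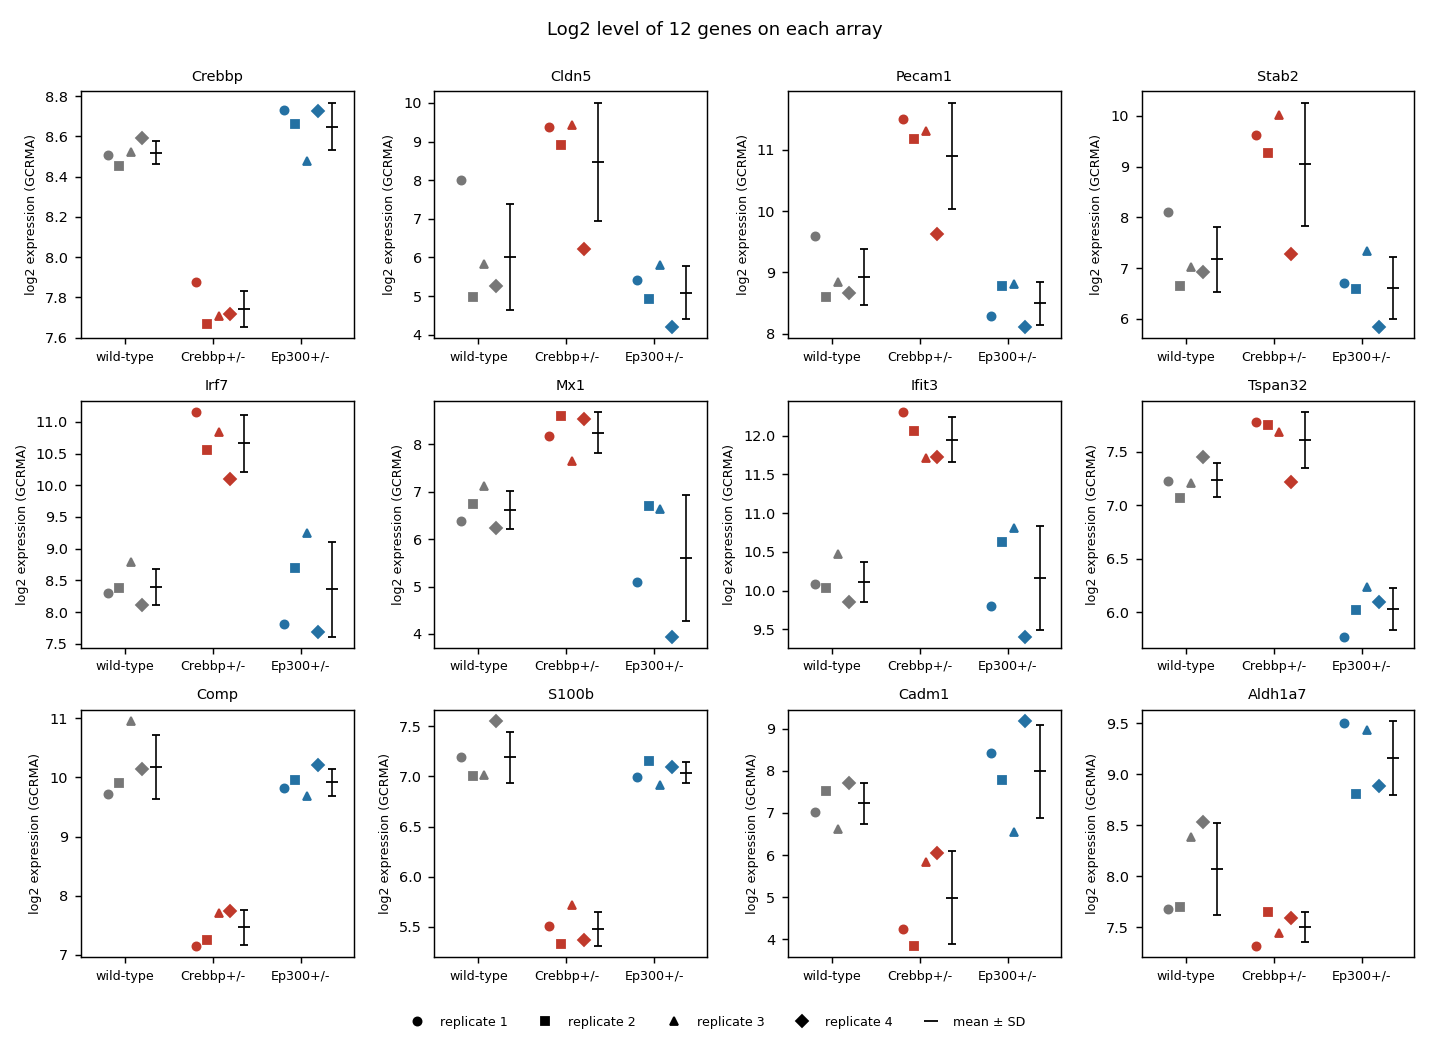
Log2 expression level on each array for 12 genes in wild-type, Crebbp+/- and Ep300+/- stroma, one panel per gene, with points for arrays and bars for the mean ± SD (n = 4). Crebbp lies between 7.67 and 7.88 in Crebbp+/- and between 8.48 and 8.73 in Ep300+/-; Comp and S100b are lower and Pecam1, Irf7 and Ifit3 higher in every Crebbp+/- array than in any Ep300+/- array.

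Receptors and regulators of vessel growth followed the same order. Tie1, a receptor tyrosine kinase of the angiopoietin system (log2 fold change 2.92, limma adjusted p = 0.021), Robo4, the vascular roundabout receptor (2.69, 0.017), and Kdr, the main VEGF receptor (2.10, 0.0231), were higher in Crebbp+/- stroma. Erg, an ETS transcription factor of endothelial identity, was at 7.58, 7.24, 7.28 and 4.91 in Crebbp+/- and at 3.63, 5.02, 4.98 and 3.58 in Ep300+/-. It passed (2.46, SE 0.60, adjusted p = 0.031) although Crebbp+/- 4 lay within the Ep300+/- range. Among secreted ligands, Pgf, the placental growth factor of the VEGF family, was at 9.72, 9.35, 10.28 and 8.23 against 6.69, 7.31, 7.65 and 7.30, with no overlap (2.16, SE 0.39, adjusted p = 0.0134). Apln, the apelin peptide (2.38, adjusted p = 0.0125), and Edn1, the vasoconstrictor endothelin 1 (1.67, 0.0134), were higher and were named after their values were seen. Ephb4, the venous ephrin receptor, was higher by 1.32 (adjusted p = 0.0283). In the wider list of IGF, FGF, PDGF and VEGF ligands and receptors, 2 of 23 measured genes were higher and Igfbp6 was lower. The shares over all genes were 5.22% and 1.87%.

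The stabilin scavenger receptors went in opposite directions. Stab2, typical of sinusoidal endothelium, was at 9.61, 9.26, 10.02 and 7.27 in Crebbp+/- and at 6.70, 6.58, 7.33 and 5.84 in Ep300+/- (2.43, SE 0.55, limma adjusted p = 0.0253), with Crebbp+/- 4 just below the highest Ep300+/- array. Stab1, which is found on sinusoids and also on macrophages, was at 11.73, 11.91, 12.003 and 12.03 against 13.16, 12.92, 12.34 and 13.10. It was the 1 endothelial marker lower in Crebbp+/- (-0.96, SE 0.24, adjusted p = 0.0317), and its groups did not overlap. The 13 measured members without a call included Gpihbp1, the lipase carrier of capillaries, at 9.54, 9.26, 9.01 and 4.35 against 4.46, 3.42, 3.79 and 3.04. Its difference was 4.36 with an adjusted p of 0.0505, and Crebbp+/- 4 was within the Ep300+/- range. Esm1, at -0.60, was the other negative member.

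Genes of pericytes, the contractile cells that wrap small vessels, were higher in part. Of 8 measured, 4 were higher, all 8 were positive, and the median log2 fold change was 0.98. With the block 5 were higher. Over all genes 5.22% were higher, and 21.4% with the block. Rgs5, a regulator of G protein signalling used as a pericyte marker, was at 13.49, 13.35, 13.53 and 11.69 in Crebbp+/- and at 11.09, 10.88, 11.24 and 9.09 in Ep300+/-. The groups were apart, and array 4 was the lowest of either genotype (2.44, SE 0.59, limma adjusted p = 0.0308); 3 further probe sets of Rgs5 gave 3.57 to 4.17. Mcam, an adhesion molecule shared by pericytes and endothelium, was higher by 1.56, Rgs4 by 1.46 and Myh11, the smooth muscle myosin, by 1.12, with adjusted p of 0.0301, 0.031 and 0.0429. Notch3 (0.84, adjusted p = 0.115) and Cnn1 (0.01) did not pass.

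Without the arrays of low Eif2s3y the endothelial median was 1.37 and the pericyte median 0.74, with 34 of 36 and 8 of 8 members positive. In limma 0 endothelial genes passed there and 23 had an unadjusted p under 0.05, against 34 on all arrays. Leaving out single arrays gave 1 endothelial call higher without Crebbp+/- 1, 8 without Crebbp+/- 2, 14 without Crebbp+/- 3, 0 without Ep300+/- 1 and 9 without Ep300+/- 4, against 22.

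Interferon-response genes were higher in Crebbp+/- than in Ep300+/- stroma. Type I interferon activates a transcription factor complex that includes STAT2 and IRF9, which binds a DNA element called the ISRE and switches on antiviral genes. Of 74 listed genes 52 were measured, 20 were higher and 0 lower, against a background of 5.22% and 1.87%. The median log2 fold change was 0.99 and all 52 were positive. With the replicate block 42 were higher, against 21.4% of all genes. For 27 of the 52 no arrays overlapped, against 10.2% of all genes. List means in Crebbp+/- arrays 1 to 4 were 1.05, 0.84, 0.98 and 0.45, in Ep300+/- -0.66, -0.07, 0.51 and -1.01, and in wild type between -0.74 and -0.36. The wild-type arrays thus lay within the Ep300+/- range, and Ep300+/- 3, the array with high NF-kB targets, lay just above Crebbp+/- 4.

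Promoter sequences show the element in some of these genes. The ISRE core was searched as GAAANNGAA on both strands from 250 bases before to 50 after the start of each gene in RefSeq promoters of assembly GRCm38.p6. Of the 20 called genes 16 had a promoter in that table, and 8 (50%) held a match: Adar, Ddx58, Ddx60, Eif2ak2, Ifi213, Ifit3, Oas3 and Stat2. Among all 27025 genes with a promoter of the same length 2638 (9.76%) held one. In the 150 bases before the start the shares were 25% and 4.61%. Of all 52 measured list members 40 had a promoter, and 22 (55%) held a match, with 37.5% in the shorter window. The called members thus did not hold the core more often than the list as a whole. A match describes the letters only. The stretches of the 3 called genes of smallest p that held a match are shown, because a signalling component and a pair of antiviral effectors carry the element in different number. Each is written 5′ to 3′ on the gene's strand with the matches in capitals, and a run of capitals that begins with TTC is the same core on the opposite strand.
Stat2 (chr10:128270257-128270305, plus strand, 221 bases before the start): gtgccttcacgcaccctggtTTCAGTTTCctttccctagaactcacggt
Ifit3 (chr19:34583354-34583455, plus strand, 3 matches from 155 to 102 bases before the start): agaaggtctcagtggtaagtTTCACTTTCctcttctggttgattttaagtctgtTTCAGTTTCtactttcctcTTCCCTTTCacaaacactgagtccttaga
Oas3 (chr5:120777700-120777754, minus strand, 2 overlapping matches 75 and 69 bases before the start): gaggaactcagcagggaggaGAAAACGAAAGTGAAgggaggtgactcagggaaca

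Some transcription factors of the pathway were higher in Crebbp+/- stroma and some were not. Irf7, which amplifies interferon production, was at 11.15, 10.56, 10.83 and 10.10 in Crebbp+/- and at 7.81, 8.69, 9.25 and 7.68 in Ep300+/-. No arrays overlapped (log2 fold change 2.30, SE 0.37, limma adjusted p = 0.0116). Stat2, the subunit of the ISRE-binding complex whose activation domain binds CBP and p300, was at 9.65, 9.83, 9.0 and 9.24 against 7.79, 8.34, 7.98 and 7.67. It was higher by 1.48 (SE 0.26, adjusted p = 0.0127), and a further probe set gave 1.21 with an adjusted p of 0.017. Irf9, the DNA-binding partner of Stat2, did not pass (0.50, adjusted p = 0.21), and the receptor subunit Ifnar1 was at 0.01.

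Effector genes were higher over a wide range of sizes. Ifit3, an RNA-binding antiviral protein with 3 matches to the core, was at 12.31, 12.06, 11.71 and 11.72 in Crebbp+/- and at 9.80, 10.63, 10.81 and 9.41 in Ep300+/- (log2 fold change 1.79, SE 0.33, limma adjusted p = 0.0134). Oas3, an oligoadenylate synthetase that activates RNase L, was at 9.83, 9.48, 9.12 and 9.19 against 7.45, 8.17, 8.26 and 7.03 (1.68, SE 0.31, adjusted p = 0.0142). In both, the Ep300+/- arrays spread over more than 1 log2 unit and the Crebbp+/- arrays over less. Mx1, an antiviral dynamin-like GTPase, was at 8.19, 8.61, 7.66 and 8.54 against 5.10, 6.70, 6.64 and 3.94, a difference of 2.65 (SE 0.53, adjusted p = 0.0173). Its wild-type arrays, at 6.38, 6.74, 7.12 and 6.23, lay below all Crebbp+/- arrays and overlapped Ep300+/-, and differences from the wild-type mean were 1.63 for Crebbp+/- and -1.02 for Ep300+/- on the log2 scale. Ifi213, of the PYHIN family of DNA sensors, was at 9.02, 8.60, 9.11 and 8.51 against 3.52, 5.89, 7.52 and 4.42. The level was 11.1-fold higher (3.47, SE 0.67, adjusted p = 0.0157), with a wide spread in Ep300+/-. Ms4a4c, a membrane protein induced by interferon, was at 11.39, 11.09, 10.98 and 10.74 against 8.22, 9.10, 9.92 and 7.83 (2.28, SE 0.40, adjusted p = 0.0127).

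The other called members ranged from 0.95 to 2.53 and were Oasl1, Zbp1, Usp18, Ifit2, Ifi209, Oasl2, Xaf1, Dhx58, Ddx60, Adar, Herc6, Eif2ak2 and Ddx58. They include RNA sensors (Ddx58 and Dhx58), the kinase that stops translation on viral RNA (Eif2ak2), the RNA editing enzyme Adar, and Usp18, the feedback inhibitor of the interferon receptor (1.646, limma adjusted p = 0.0216). Oasl1 had the highest of these values (2.53, SE 0.55, adjusted p = 0.0228) with overlap between the groups. Its highest value was 4.67 in wild type and 6.51 in Ep300+/-. Probe sets of the table reach 6.644 on 3 or more arrays, so Oasl1 entered only through Crebbp+/- arrays. Its call and its place in the counts above carry that selection. Among the 32 members without a call at their probe set of highest mean were Rsad2 (1.71, adjusted p = 0.0781), Ifit1 (1.25, 0.0824), Oas2 (0.83) and Cxcl10 (0.39). A weaker probe set of Rsad2 passed (2.80, adjusted p = 0.0253), as did those of Trim30d (1.01, 0.0406) and Sp100 (0.98, 0.0493). Cxcl10, a chemokine that NF-kB also induces, was at 12.27 in Crebbp+/- 3 and 12.44 in Ep300+/- 3 and between 6.21 and 8.12 on the other heterozygote arrays.

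Genes induced mainly by interferon gamma and genes of antigen presentation moved in part. Counts here stand beside 5.22% of all genes higher, and 21.4% with the block. Of 12 measured interferon gamma GTPases and relatives, 2 were higher and the median was 0.88, and with the block 8 were higher. Gbp8, a guanylate-binding protein, was at 7.61, 7.61, 8.01 and 6.41 in Crebbp+/- and at 3.81, 5.97, 4.44 and 5.34 in Ep300+/- (2.52, SE 0.50, limma adjusted p = 0.017), without overlap. Igtp, an immunity-related GTPase, was higher by 0.92 (adjusted p = 0.0417), while Iigp1 (1.61, 0.0741) and Ifi47 (0.84, 0.0693) did not pass. Of 7 antigen presentation genes, the class I gene H2-T24 (1.53, adjusted p = 0.0218) and Tapbp, the tapasin chaperone (1.34, 0.031), were higher. Psmb8 (0.72, 0.0767) and B2m (0.47, 0.346) did not pass. In the Gimap and Ms4a families, 3 of 7 were higher with a median of 2.26. Gimap4, a GTPase of lymphocytes that endothelial cells also express, was at 8.60, 7.90, 7.99 and 5.78 against 4.38, 3.97, 5.20 and 3.46 (3.31, SE 0.71, adjusted p = 0.0216), and Gimap6 was higher by 2.29 with overlap.

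Without the arrays of low Eif2s3y the interferon median was 0.90, with 48 of 52 members positive. In limma 0 of them passed there and 27 had an unadjusted p under 0.05, against 43 on all arrays. The medians there were 0.70 for the interferon gamma group, 0.41 for antigen presentation and 1.5 for the Gimap and Ms4a families. Leaving out single arrays gave 0 interferon calls without Crebbp+/- 1, 6 without Crebbp+/- 2, 0 without Ep300+/- 1, 36 without Ep300+/- 3 and 7 without Ep300+/- 4, against 20.

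Cartilage and tendon genes included the smallest p of the comparison. Comp, a pentameric matrix protein of cartilage and tendon, was at 7.15, 7.26, 7.71 and 7.73 in Crebbp+/- and at 9.81, 9.96, 9.68 and 10.21 in Ep300+/-. Wild-type arrays were at 9.71, 9.90, 10.94 and 10.15, so Ep300+/- lay at the wild-type level and Crebbp+/- below both. Ep300+/- stroma held 5.46 times the Crebbp+/- level (log2 fold change -2.45, SE 0.30, limma adjusted p = 0.00437). S100b, a calcium-binding protein of chondrocytes and glia, was at 5.50, 5.33, 5.71 and 5.37 against 6.99, 7.15, 6.91 and 7.10, also far apart (-1.56, SE 0.22, adjusted p = 0.00805). Itga10, the collagen-binding integrin chain of chondrocytes, was at 5.22, 4.68, 4.41 and 5.73 against 7.22, 7.20, 6.51 and 7.19 (-2.02, SE 0.33, adjusted p = 0.0116). Smoc2, a secreted matricellular protein, was at 4.63, 4.61, 5.15 and 4.94 against 7.53, 6.67, 5.58 and 7.13 (-1.90, SE 0.37, adjusted p = 0.0156). These were the 4 of 11 measured genes that passed, against 1.87% of all genes lower. Of the 11, 7 were negative with a median of -0.48, and -0.49 without the arrays of low Eif2s3y. Under a filter on low values, which leaves fewer genes, the median was 0.31 and 1 gene was lower, and with array weights it was -1.12.

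Bone and mesothelial genes were lower as well. Counts here stand beside 1.87% of all genes lower. Leaving out single arrays gave 0 to 2 osteoblast calls and 0 to 4 calls in the mesothelial and fibroblast list. Of 5 measured osteoblast genes 2 were lower and all 5 negative, with a median of -0.57. Ibsp, the bone sialoprotein, was at 9.64, 9.94, 10.30 and 11.03 in Crebbp+/- and at 12.51, 12.53, 11.21 and 11.34 in Ep300+/- (-1.67, SE 0.42, limma adjusted p = 0.0321), the groups lying close but apart. A weaker probe set of Ibsp did not pass (-1.32, adjusted p = 0.115), and its groups overlapped. Clec11a, the bone growth factor osteolectin, was lower by a log2 fold change of -1.54 with overlap (adjusted p = 0.0412), and Alpl, alkaline phosphatase, was at -0.57 (0.343). Of 6 measured mesothelial and fibroblast surface genes 4 were lower, with a median of -1.80 and, without the arrays of low Eif2s3y, -1.31. Aqp1, a water channel, was at 6.59, 6.08, 5.87 and 7.71 against 8.75, 8.20, 7.71 and 8.88 (-1.82, SE 0.42, adjusted p = 0.0253). Igfbp6, a binding protein for IGF2 (-2.29, SE 0.62, adjusted p = 0.0429), Lrrn4cl (-1.96, 0.0317) and Anxa8 (-1.78, 0.0356) were the others. The list mean was -1.09, -1.08, -1.30 and -0.31 in Crebbp+/- and 0.21, -0.06, 1.04 and 0.31 in Ep300+/-, with no overlap.

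Muscle genes were low in Crebbp+/- on only some arrays. Myh1, a fast skeletal myosin, was at 2.80, 6.32, 2.36 and 5.02 in Crebbp+/- and at 8.54, 6.51, 8.38 and 9.45 in Ep300+/- (-4.10, SE 1.01, limma adjusted p = 0.0317). Crebbp+/- 1 and 3, the arrays of low Eif2s3y, were the lowest. Of 9 measured muscle genes Myh1 was the 1 that passed, against 1.87% of all genes lower. All 9 were negative with a median of -1.56, which was -0.56 without those arrays. Ttn (-2.63, adjusted p = 0.0819) and Tnnt2 (-2.25, 0.0832) did not pass.

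Adhesion and matrix genes were mixed. Their counts stand beside 5.22% of all genes higher and 1.87% lower, and 21.4% higher with the block. Of 20 measured integrin and adhesion genes 5 were higher and 3 lower, with a median of -0.06. Itgb3, the beta chain of the vitronectin receptor on endothelium, platelets and osteoclasts, was at 8.01, 7.03, 7.94 and 6.42 in Crebbp+/- and between 5.24 and 5.53 in Ep300+/- (1.99, limma adjusted p = 0.0127). Itga3, a laminin receptor chain, was higher by 1.18 (0.0173), and the other higher genes were Icam2, Mcam and F11r. Cadm1, an immunoglobulin-like adhesion molecule, was at 4.25, 3.85, 5.83 and 6.04 against 8.42, 7.79, 6.56 and 9.17 (-2.99, SE 0.60, adjusted p = 0.017), and Itgbl1 (-1.37, 0.0218) and Itga10 were also lower. Of 11 collagen genes 2 were higher, Col18a1 of vascular basement membranes (1.10, 0.0245) and Col5a3 (1.04, 0.031), with a median of 0.71. With the block 8 were higher, and after quantile normalization or median centring 0 were. Col4a1 (0.73, 0.052) and Col3a1 (1.15, 0.0601) did not pass. Agrn, a basement membrane proteoglycan (1.14, 0.0231), and Thbs2, an antiangiogenic thrombospondin (1.07, 0.0406), were the 2 of 23 measured matrix glycoproteins that were higher, and 6 were with the block. Timp4, a metalloprotease inhibitor, was lower by a log2 fold change of -1.96 (SE 0.51, 0.0382) and was the 1 call among 16 proteases and inhibitors.

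Sterol synthesis genes were low in Crebbp+/-, mostly short of the threshold. Cells make cholesterol through the mevalonate pathway, whose genes are switched on together by SREBP2 at sterol response elements. Of 16 measured genes 2 were lower, 15 were negative and the median was -0.67, and with the block 8 were lower. Over all genes 1.87% were lower, and 6.13% with the block. Idi1, the isopentenyl isomerase, was at 9.17, 9.03, 9.26 and 9.91 in Crebbp+/- and at 10.24, 10.40, 10.20 and 10.70 in Ep300+/- (-1.04, SE 0.26, limma adjusted p = 0.031), and a further probe set gave -1.41 with an adjusted p of 0.0179. Lss, which closes the sterol rings, was at 6.32, 5.92, 5.94 and 6.57 against 7.24, 7.16, 6.90 and 7.39 (-0.98, SE 0.26, adjusted p = 0.0406). Neither gene overlapped between the groups. Hmgcs1, the synthase at the head of the pathway, was at 10.80, 10.64, 11.16 and 11.15 against 11.60, 11.71, 11.71 and 12.004. Its groups were also apart, but it missed the threshold (-0.82, SE 0.23, adjusted p = 0.052). Cyp51, a sterol demethylase, was at -0.97 (0.0689), with -1.45 and 0.0317 at a weaker probe set. Without the arrays of low Eif2s3y the median was -0.48, with 15 of 16 negative.

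The sterol element was searched as TCACNCCAC on both strands. Of the 16 sterol genes 12 had a promoter in the RefSeq table, too few for a share to be read, and Hmgcs1 was the only 1 of those 12 that held a match, while neither Idi1 nor Lss did. Of all genes with a promoter of the same length 1.44% held the element. The stretch is shown in capitals at the match, 137 bases before the start, because it is the only match in the list.
Hmgcs1 (chr13:119690194-119690242, plus strand, GRCm38.p6): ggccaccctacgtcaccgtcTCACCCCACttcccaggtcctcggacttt

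In lipid genes beyond sterols, Acsl3, an acyl-CoA synthetase of lipid droplets, was lower by a log2 fold change of -0.87 (limma adjusted p = 0.0379). It was the 1 call among 3 measured fatty acid genes, and 1.87% of all genes were lower. None of 14 measured adipocyte genes passed in limma and 1 had an unadjusted p under 0.05; Angptl4, a lipase inhibitor, had the smallest p at 1.05 (adjusted p = 0.0602).

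For 11 genes the Ep300+/- mean lay farther from wild type than the Crebbp+/- mean, 6 of them higher in Crebbp+/- than in Ep300+/- and 5 lower. They were picked out after their values were seen, and none differed from wild type at an adjusted p of 0.05 in Ep300+/- stroma. Tspan32, a tetraspanin of blood cells, was at 7.78, 7.75, 7.69 and 7.22 in Crebbp+/-, at 5.78, 6.03, 6.24 and 6.10 in Ep300+/- and at 7.22, 7.07, 7.21 and 7.45 in wild type. Every Ep300+/- array was thus below every array of the other genotypes. The heterozygotes differed by 1.58 (SE 0.23, limma adjusted p = 0.00805), and differences from the wild-type mean were 0.37 for Crebbp+/- and -1.20 for Ep300+/-. Slc16a9, a monocarboxylate transporter, was at 7.96, 8.46, 7.34 and 8.07 against 7.08, 6.98, 6.69 and 6.79 (1.07, SE 0.26, adjusted p = 0.031). Sorl1, a sorting receptor, was at 8.50, 8.41, 8.31 and 8.69 against 6.57, 7.09, 6.67 and 7.61 (1.49, SE 0.29, adjusted p = 0.0153). Slc22a23 (1.82), Bst1, an ectoenzyme of stromal and myeloid cells (1.11), and Il21r, the interleukin 21 receptor (0.85), completed the higher ones, with adjusted p of 0.0207, 0.0265 and 0.0433.

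In the other direction Aldh1a7, an aldehyde dehydrogenase, was at 7.32, 7.65, 7.45 and 7.59 in Crebbp+/-, at 9.50, 8.81, 9.43 and 8.88 in Ep300+/- and at 7.68, 7.69, 8.38 and 8.53 in wild type. Every Ep300+/- array was above every other array, and the heterozygotes differed by -1.66 (SE 0.28, limma adjusted p = 0.0116). Ncf4, a subunit of the phagocyte oxidase, was at 8.84, 8.61, 9.28 and 9.26 against 9.90, 9.65, 9.99 and 10.21, without overlap (-0.94, SE 0.25, adjusted p = 0.0431). Ppp1r9a, an actin-binding scaffold (-1.12), Btbd11 (-1.02) and Socs2, a cytokine-induced inhibitor of growth hormone signalling (-0.93), were also lower, with adjusted p of 0.0218, 0.0218 and 0.0372. At a weaker probe set of Btbd11 (-1.20, limma adjusted p = 0.0187) the Crebbp+/- mean lay slightly farther from wild type (-0.64) than the Ep300+/- mean (0.56).

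Calls among blood cell markers were few in number. Over all genes 5.22% were higher and 1.87% lower, and the macrophage calls lay near those shares. Of 25 measured macrophage markers Fcgr4, an Fc receptor, was higher (0.88, limma adjusted p = 0.0412) and Ncf4 lower, with a median of 0.33 and 0.28 without the arrays of low Eif2s3y. A weaker probe set of Gas7 was also higher (1.75, adjusted p = 0.0156), against 0.28 (0.738) at the stronger. The macrophage list mean was 0.39, 0.28, 0.35 and -0.17 in Crebbp+/- and -0.07, -0.13, 0.37 and -0.46 in Ep300+/-, so these groups overlapped. Of 4 osteoclast genes Itgb3 was the 1 call. Of 2 measured lymphoid genes, Igkv8-30, an immunoglobulin light chain segment, was at 5.34, 7.24, 8.36 and 7.13 against 4.88, 3.60, 4.79 and 3.58 (2.80, SE 0.54, adjusted p = 0.0153), and Blnk, a B-cell adaptor that macrophages also express, was lower (-1.73, SE 0.38, 0.0235). Neither of the 2 granulocyte and mast cell genes nor Pf4, the 1 measured erythroid and megakaryocyte gene (-0.07), passed in limma, and 0 of these had an unadjusted p under 0.05.

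Several signalling lists held 1 or 2 calls. Of all genes 5.22% were higher and 1.87% lower, or 21.4% and 6.13% with the block. A single call is therefore not read as a result about its list. Among 16 measured reticular stromal and niche factors Eng, the endothelial TGF-beta coreceptor, was the 1 call (0.96, limma adjusted p = 0.0356), and 7 were higher with the block. Among 9 semaphorin, ephrin and axon guidance genes Robo4 and Ephb4 were higher. Among 12 complement and coagulation genes Tfpi2, a serine protease inhibitor, was higher (1.5, 0.0231), while Tfpi did not pass (0.76, 0.0648). Nbl1, a secreted BMP antagonist, was the 1 call of 17 TGF-beta and BMP genes (-0.90, 0.0412), although 6 were higher and 1 lower with the block. Socs2 was the 1 call of 11 cytokine receptors and regulators, and Hoxc8 (-1.45, SE 0.35, 0.0306) was that of 4 homeobox genes, with overlap. Of 21 detoxification enzymes Cyp4b1 was higher (2.10, 0.0364) and Aldh1a7 lower. Crebbp was the 1 call of 5 measured acetyltransferases and partners; Hif1a was at 1.24 (0.065).

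Lists of targets of CREB, NF-kB, p53, Notch and hypoxia factors held no calls. For all genes the shares were 5.22% higher and 1.87% lower, or 21.4% and 6.13% with the block. None of 24 measured cAMP and CREB targets passed in limma, with or without the block, and 0 had an unadjusted p under 0.05. Nr4a2 had the smallest p at -0.90 (adjusted p = 0.279). Their median was -0.29, 0.08 without Crebbp+/- 4, 0.13 without Ep300+/- 3 and -0.95 without the arrays of low Eif2s3y, where 3 had an unadjusted p under 0.05. None of 23 NF-kB targets passed in limma, 2 had an unadjusted p under 0.05 and 2 were higher with the block. Their median was -0.32, 0.14 without Crebbp+/- 4, 0.39 without Ep300+/- 3 and -1.12 without the arrays of low Eif2s3y, where 7 had an unadjusted p under 0.05. Tnf was at 9.80, 8.84, 14.38 and 8.65 in Crebbp+/- and at 9.44, 12.29, 14.36 and 9.21 in Ep300+/-, so array 3 was the highest of either genotype. None of 11 p53 targets, 5 Wnt, 6 Notch, 9 hypoxia and glycolysis genes or 3 cell cycle genes passed in limma. The numbers with an unadjusted p under 0.05 were 2, 1, 5, 5 and 2, and with the block 2, 2, 3, 2 and 1 were higher, while 2 hypoxia and glycolysis genes and 1 cell cycle gene were lower. These counts read the strongest probe set of a gene. At a weaker probe set Jag1, a Notch ligand also in the niche list, was higher (1.08, adjusted p = 0.0406), against 0.60 (0.168) at the stronger. Slc2a3, a glucose transporter, came closest among the hypoxia genes (-0.97, adjusted p = 0.0527). None of 14 chemokines and myeloid growth factors passed. In limma 2 of them had an unadjusted p under 0.05. Ccl8, a monocyte chemokine, had the smallest p, at 10.35, 10.70, 8.24 and 7.35 against 5.95, 6.18, 8.43 and 2.84 (3.31, adjusted p = 0.0856).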

How the data were processed

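Expression was measured on 12 Affymetrix arrays, 4 per genotype as the labels group them. The authors deposited log2 values, and the submitters' processing notes name GCRMA, with no version. This method subtracts a background predicted from each probe's bases, equalizes the arrays and merges the probes of a set, so levels of different probe sets are not on 1 scale. From 3127 rows, 18 controls were removed and 3109 tested. As read from the values, each had an interquartile range of 0.5001 or more and reached 6.644 (the log2 of 100) on 3 or more arrays. Flat genes are thus not analysed here. A gene high in 1 genotype alone could enter the table through those arrays, and counts over lists include such genes. Of the tested probe sets 2486 had 1 gene symbol in the platform annotation, 176 several and 447 none, and genes were named from the first kind only. Array totals carry no depth, and the number of arrays limits the precision.

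The contrast of Crebbp+/- minus Ep300+/- came from limma 3.58.1 (R 4.3.3) in 1 fit of 3 genotype means over all 12 arrays, two-sided, with Benjamini-Hochberg adjustment over 3109 probe sets, and called at an adjusted p under 0.05. All adjusted p-values in the text come from this fit unless another setting is named. Fold changes are differences of log2 means with limma's standard error (SE). A gene stands for its probe set of highest mean. The script was tested on simulated data. The replicate numbers recur in the genotypes. Deviations of same-numbered Crebbp+/- and Ep300+/- arrays from their group means correlated with r from 0.294 to 0.513 across probe sets, each above 0.1, and 3 of the 4 numbers were best matched by their own (Crebbp+/- 2 correlated with Ep300+/- 1 at 0.517 and with Ep300+/- 2 at 0.338). Blocked counts are therefore given beside the results. The labels give no meaning for the numbers, and the reported fit has no block.

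The genotypes compared, the 40 gene lists and the rules were chosen with earlier results of these data known, so counts over a list are descriptions without a test. Named genes were Crebbp, the called genes at either end of the fold changes (15 each), and for each list with a call its leading members by p (up to 4, or 2 for other lists). Other named members are described from the same lists after their values were seen. RefSeq promoters (GRCm38.p6) were matched by symbol or gene ID for 1574 of 1974 genes. Motif shares are given for gene sets with at least 80% matched and, for comparison, for all measured interferon genes. Alternatives were quantile normalization, median centring, a low-value filter, eBayes with trend and robust, the 8 arrays alone, weighted arrays, a fold minimum of 1.5, the replicate block, a stricter threshold, the Eif2s3y and spike-in levels as covariates, and leaving out arrays.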

Additional observations from a re-analysis of the deposited data

Results flagged for a closer look

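In groups of 4 arrays, 1 array was marked where its gap to the nearest other, as a part of the group's range, exceeded Dixon's 95% critical value. This marked 19 of 147 gene and list groups, where chance marks about 1 in 20. Groups share arrays and genes, so the marks are not independent.

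Most marks fell on Crebbp+/- 4. It was the lowest of its group for Cldn5 (6.22, nearest 8.90), Robo4 (7.28, nearest 9.23), Erg (4.91, nearest 7.24) and Rgs5 (11.69, nearest 13.35), and the highest for Lrrn4cl, a surface gene of the mesothelial and fibroblast list (6.62, nearest 5.14). Its list means were the lowest for endothelial markers (-0.184, nearest 1.39), antigen presentation (-0.0397, nearest 0.53), the Gimap and Ms4a families (0.1445, nearest 1.20), detoxification enzymes (-0.4352, nearest 0.04) and IGF, FGF, PDGF and VEGF ligands and receptors (-0.1373, nearest 0.37). For cholesterol synthesis it was the highest (0.0078, nearest -0.52). In each of these endothelial, pericyte and sterol results the other 3 Crebbp+/- arrays lay closer to each other than to array 4, and without array 4 the number of called probe sets was 374 against 199.

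Wild-type 1 was the highest wild-type array for Gimap4 (6.75, nearest 4.12), Tie1 (7.10, nearest 5.39), Oasl1 (4.67, nearest 4.13) and the endothelial list mean (0.3814, nearest -0.62). Wild-type 3 was the lowest for integrins and adhesion (-0.2791, nearest -0.06). Among Ep300+/- arrays, array 3 was the highest for Oasl1 (6.51, nearest 4.26) and the lowest for Itga10 (6.51, nearest 7.19), and array 4 was the lowest for Rgs5 (9.09, nearest 10.88).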

How the results depend on the processing

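No named gene with a call changed direction under any alternative run, but the medians of 13 of the 39 lists changed sign under at least 1, and 7 of those 13 held calls. Under the low-value filter, which tests fewer genes, the median of cartilage and tendon genes went from -0.48 to 0.31 and that of homeobox genes from -0.58 to 0.61. Under array weights that of lymphoid genes went from 0.54 to -0.20 and that of NF-kB targets from -0.32 to 0.12. Leaving out Crebbp+/- 4 or Ep300+/- 3 turned the medians of the NF-kB list (to 0.14 and 0.39) and the CREB list (from -0.29 to 0.08 and 0.13). Quantile normalization gave 191 called probe sets (73.8% higher, against 76.4% as reported), median centring 181 (70.7% higher) and eBayes with trend and robust 201, sharing 169, 169 and 190 with the 199. Quantile normalization moved the median log2 fold change of all probe sets from 0.03 to -0.09 and median centring to -0.12. Quantile normalization lowered the calls among collagens from 2 to 0 and among interferon gamma GTPases and sterol genes from 2 to 1. A fold minimum of 1.5 left the counts of all probe sets, endothelial and interferon genes as they were. The low-value filter gave 111 calls (81 higher, 30 lower) and 12 endothelial genes. The 8 heterozygote arrays alone gave 51 (45 and 6), with 12 endothelial and 6 interferon genes, and Crebbp at -0.91 with a limma adjusted p of 0.0918. Array weights, whose estimation stopped before it converged, gave 1533 (834 and 699), with 34 and 48. With the replicate number as a block there were 760 (595 and 165) and 42 interferon genes, and the block lost none of the 199 calls. At an adjusted p under 0.01 there were 6 (4 and 2), with 1 endothelial and 0 interferon genes. With Eif2s3y as a covariate there were 0 (0 and 0), with 0 and 0, and Crebbp at -0.96 (adjusted p 0.186). Without the arrays of low Eif2s3y there were 2 (2 and 0), with 0 and 0, and Crebbp at -0.95 (adjusted p 0.186). Without Crebbp+/- 3 and Ep300+/- 3 there were 122 (96 and 26), and with the spike-in level as a covariate 341 (266 and 75). Averaging the probe sets of each gene gave 32 interferon genes. Leaving out each array gave 2 to 374 calls, 1 to 278 higher, 1 to 96 lower, 0 to 31 endothelial and 0 to 36 interferon genes, and Crebbp at -0.96 to -0.88. The same fits gave 0 to 5 pericyte genes higher, and 1 to 5 cartilage and tendon, 0 to 2 osteoblast, 0 to 4 mesothelial and fibroblast and 0 to 5 sterol genes lower. The cause of these changes was not tested. The remaining values were the counts of calls in other lists and the single named genes apart from Crebbp. Of these, 180 list counts moved by more than 1.5 times, or to or from 0. For named genes 186 values gained a call and 538 lost one. The other 2458 values were list counts within 1.5 times or genes whose call was unchanged. Signal near the bottom of the scale limits the size of a difference where 1 group is under 5.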

Other observations

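A few called genes that belong to none of the groups above had low p-values, and were picked out after their values were seen. Sdcbp2, a syntenin adaptor, was higher in Crebbp+/- than in Ep300+/- stroma by 2.05 log2 units (limma adjusted p = 0.00805). Trp53i11 was higher by 2.42 (adjusted p = 0.0239). Upp1, the uridine phosphorylase (2.28), and Mest, an imprinted gene of mesoderm (1.95), were higher too. Bcl6b, a transcriptional repressor of endothelial and lymphoid cells that was not in the endothelial list, was higher by 1.93 (adjusted p = 0.0134).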
